A study of Mus musculus with 8 samples.

Results

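Tissue macrophages are resident phagocytes that clear dying cells, remodel matrix and take part in innate defence. Most depend on the receptor encoded by Csf1r, which binds the growth factors CSF1 and IL-34, and on the ETS-family transcription factor PU.1, the product of Spi1. In developing teeth they are found in the dental pulp and follicle, beside osteoclasts, the bone-resorbing cells that share their CSF1-dependent origin. The 10 genes described here (Csf1r, Adgre1, Mrc1, Cd68, Tyrobp, Aif1, C1qa, C1qb, C1qc and Lyz2) are widely used markers of such cells. They were chosen by name, and all 10 were among the 17631 genes of the comparison. None is exclusive to macrophages in every tissue: osteoclasts also express Csf1r, Cd68 and Tyrobp, neutrophils and monocytes express Lyz2 and Tyrobp, and some endothelia express Mrc1.

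RNA was sequenced from the apical part of lower first molars of C57BL/6 mice at postnatal day 7.5. Mutant animals were Gli1-CreERT2;Runx2fl/fl and control animals Runx2fl/fl, with 4 libraries in each group. Both groups received tamoxifen in corn oil into the peritoneum on postnatal day 3.5, at a dose of 1.5 mg per 10 g. The floxed Runx2 alleles were thus shared by both groups. Only mutants carried the recombinase CreERT2, driven from Gli1, a hedgehog target gene active in mesenchymal progenitors of the root, so the driver and the loss of Runx2 cannot be told apart. The labels describe no sorting of cells, so macrophages are 1 of many cell types in this RNA. The labels do not say whether each library was 1 animal. The authors' deposited table holds 1 mean per group and gene, with no value per library, so spread between libraries, depth and overlap between groups cannot be given. All means below, in normalised signal units, are the authors', as are the p-values unless a trend subtraction is named, and log2 ratios are of the mutant over the control mean. In the authors' deposited table Runx2 had a mean of 65.1 in mutants and 105.5 in controls (adjusted p = 0.0646), and Gli1 had 19.9 and 38.8 (adjusted p = 0.0228).

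All 10 macrophage genes were present in both groups, at means of 5.96 to 140.4 in mutants and 4.24 to 130.2 in controls. None passed an adjusted p of 0.05, by the authors' gene-specific analysis in Partek, against 0.788% of all genes (0.471% higher and 0.318% lower in mutants). At an adjusted p under 0.1, Mrc1 alone of the 10 passed, where 3.64% of all genes did. The mean was higher in mutants for 9 of the 10 (all except Cd68), where 50.6% of all genes had a higher mean. With both groups scaled to the same sum it was higher for all 10. That scaling also puts the median log2 ratio of all genes at 0.14, above that of Cd68. The median log2 ratio of the 10 was 0.14, beside 0.00327 for all genes. At an unadjusted p under 0.05 there were 3 genes, Mrc1, Aif1 and Adgre1, all higher in mutants, where 9.89% of all genes were past that limit on the higher and 9.4% on the lower side. The means of 5 of the 10 (C1qb, Csf1r, Cd68, C1qc and Lyz2) differed by less than 10% between the groups. In tissue RNA, more cells of a type and more RNA per cell cannot be told apart.

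**Figure D1:**
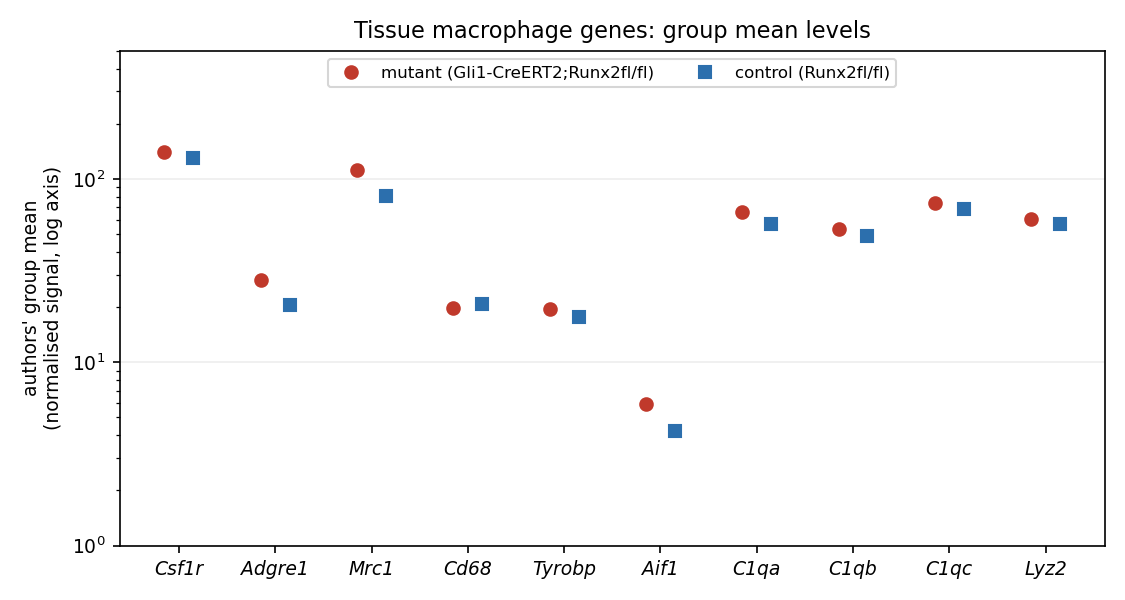
Group means of the 10 tissue macrophage genes in the authors' deposited table, in normalised signal on a log axis, with mutants (circles) left of controls (squares). No error bars are drawn because the table holds 1 value per group. The pairs are furthest apart for Adgre1, Mrc1 and Aif1, and the Cd68 pair is the one with the lower mutant mean. That direction turns when both groups are scaled to the same sum, which shifts the log2 ratios of all genes up by 0.14.

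The upstream sequences of Mrc1, C1qb, C1qc and Lyz2 are shown because each holds the letters AGGAAGT, a core bound by ETS factors such as PU.1. RefSeq promoter entries (build GRCm38.p6) matched 6 of the 10 genes, these 4 with Cd68 and Aif1. The 250 bases before the RefSeq start were searched, and those that also lie before the GENCODE M21 start are given 5′ to 3′ on the strand of the gene, with the match in capitals. In all 4 it lies on the opposite strand and so reads ACTTCCT here.
Mrc1: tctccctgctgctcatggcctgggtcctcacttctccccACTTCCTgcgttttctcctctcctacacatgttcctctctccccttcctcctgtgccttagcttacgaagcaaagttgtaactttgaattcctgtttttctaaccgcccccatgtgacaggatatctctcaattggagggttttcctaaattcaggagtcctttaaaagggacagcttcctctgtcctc
C1qb: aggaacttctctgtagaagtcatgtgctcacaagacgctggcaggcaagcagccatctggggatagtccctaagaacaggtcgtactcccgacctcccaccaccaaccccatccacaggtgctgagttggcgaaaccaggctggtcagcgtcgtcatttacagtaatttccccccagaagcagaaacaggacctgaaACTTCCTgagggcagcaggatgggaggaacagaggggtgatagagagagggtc
C1qc: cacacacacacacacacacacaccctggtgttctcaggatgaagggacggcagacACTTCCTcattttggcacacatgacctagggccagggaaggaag
Lyz2: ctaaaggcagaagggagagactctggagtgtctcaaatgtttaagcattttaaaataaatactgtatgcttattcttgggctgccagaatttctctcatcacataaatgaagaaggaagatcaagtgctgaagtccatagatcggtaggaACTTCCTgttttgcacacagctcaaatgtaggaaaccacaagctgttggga
These stretches are chr2:14229164-14229391 on the plus strand for Mrc1 and, on the minus strand, chr4:136886201-136886450 for C1qb, chr4:136893066-136893164 for C1qc and chr10:117282322-117282522 for Lyz2. The match begins 211 bases before the RefSeq start of Mrc1, 53 before that of C1qb, 195 before that of C1qc and 100 before that of Lyz2. On either strand the letters occur in 7.69% of all 32851 upstream windows of the same length. The motif was picked with these sequences in view, and a match is not a measured binding site. The 250 bases before Cd68 and Aif1 do not hold these letters. The 4 genes with a match had log2 ratios from 0.08 (Lyz2) to 0.46 (Mrc1), and the other two had -0.08 (Cd68) and 0.49 (Aif1).

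Csf1r (chromosome 18, 61100598 to 61132149, plus strand, GRCm38) encodes the receptor tyrosine kinase on which most tissue macrophages depend for survival. Its mean in the authors' deposited table was 140.4 in mutants and 130.2 in controls, a log2 ratio of 0.11 (adjusted p = 0.661). Mutants thus had a mean 7.80% higher. The last 873 bases of the gene overlap Hmgxb3 on the other strand, and the sources used here do not say whether the counting used strand. Hmgxb3 had means of 30.3 in mutants and 35.0 in controls in the authors' deposited table.

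Among the surface and endolysosomal proteins, Mrc1 (chromosome 2, 14229392 to 14332057, plus strand) encodes the mannose receptor CD206, an endocytic receptor of resident macrophages. It had the lowest p-value of the 10, with means of 111.7 in mutants and 81.1 in controls in the authors' deposited table (unadjusted p = 0.00220, adjusted p = 0.0876). The log2 ratio was 0.46, a 1.38-fold higher mean in mutants that lay outside the threshold. Adgre1 (chromosome 17, 57358691 to 57483527, plus strand) encodes F4/80, the adhesion receptor used to stain mouse macrophages. Its means were 28.2 in mutants and 20.5 in controls in the authors' deposited table (unadjusted p = 0.0466, adjusted p = 0.252), and the log2 ratio was again 0.46. Cd68 (chromosome 11, 69664213 to 69666153, minus strand) encodes a glycoprotein of late endosomes and lysosomes. It had means of 19.7 in mutants and 20.8 in controls in the authors' deposited table (adjusted p = 0.703), with a log2 ratio of -0.08. With both groups scaled to the same sum it became 0.06, where the median of all genes was 0.14. When a trend on GC content and length was subtracted it became 0.05. Differences between the ratios of these 3 genes were not tested.

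Aif1 (chromosome 17, 35170991 to 35176068, minus strand) encodes IBA1, an actin-binding protein of membrane ruffles and phagocytosis. Its means were 5.96 in mutants and 4.24 in controls in the authors' deposited table (unadjusted p = 0.0445, adjusted p = 0.248). Its log2 ratio of 0.49 was the highest of the 10. Tyrobp (chromosome 7, 30413760 to 30417585, plus strand) encodes DAP12, the adaptor that passes signals from receptors such as TREM2 to the kinase SYK. Tyrobp had means of 19.5 in mutants and 17.6 in controls in the authors' deposited table, with a log2 ratio of 0.15 (adjusted p = 0.548). Its partners also missed the threshold: in the authors' deposited table, Trem2 had 3.75 in mutants and 4.51 in controls (adjusted p = 0.367), and Syk had 11.6 and 10.0 (adjusted p = 0.407). Trem2 and Syk were picked after their values were seen.

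C1qa, C1qb and C1qc encode the chains that assemble into C1q, the recognition component of the classical complement pathway, which macrophages produce in many tissues. They lie side by side on the minus strand of chromosome 4, C1qb at 136880129 to 136886187, C1qc at 136889804 to 136893065 and C1qa at 136895917 to 136898803. C1qa had means of 65.9 in mutants and 56.8 in controls (adjusted p = 0.368) in the authors' deposited table. C1qb had 53.3 in mutants and 48.7 in controls (adjusted p = 0.613 in the authors' deposited table). C1qc had 73.6 in mutants and 68.9 in controls (adjusted p = 0.821, as the authors' deposited table gives it). The log2 ratios of the 3 chains were 0.21, 0.13 and 0.09, and summed over the chains the signal was 192.9 in mutants and 174.5 in controls. The deposited log2 ratios of the chains thus lay within 0.12 of each other.

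Lyz2 (chromosome 10, 117277331 to 117282321, minus strand) encodes lysozyme M, the antibacterial enzyme of macrophages and granulocytes. Its means were 60.4 in mutants and 57.1 in controls in the authors' deposited table, with a log2 ratio of 0.08 and the highest adjusted p of the 10, 0.867. The transcript is 95.8% identical to that of the neighbouring Lyz1 over 1264 aligned positions (GENCODE M21), so the assignment of reads to Lyz2 is uncertain, and Lyz1 was not analysed here.

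**Figure D2:**
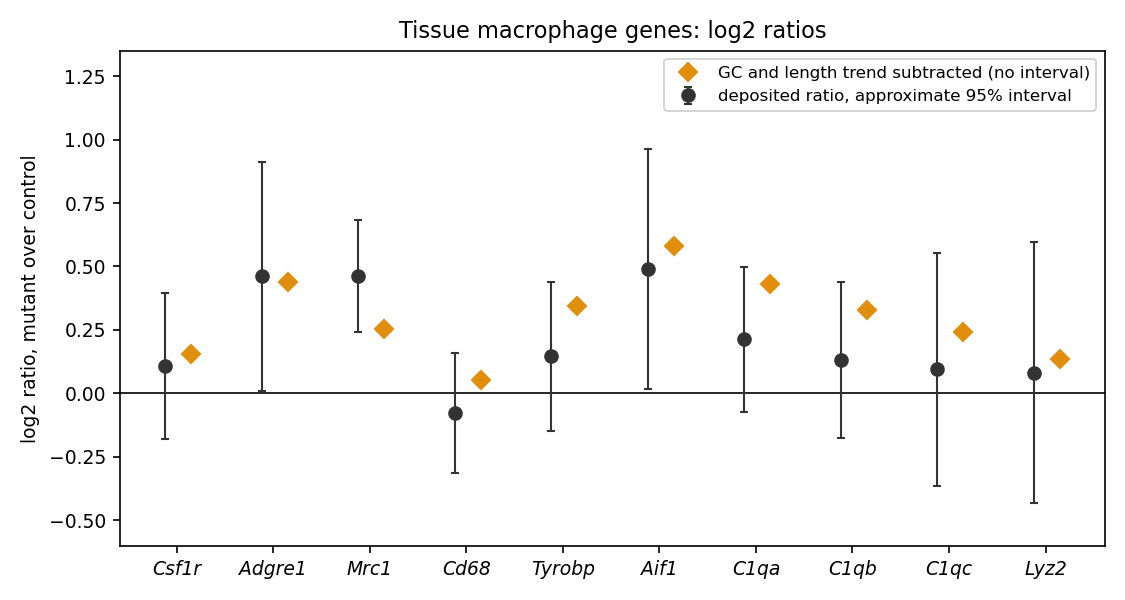
Log2 ratio of mutant over control for each tissue macrophage gene. Circles give the deposited ratio with an approximate 95% interval derived from the authors' p-value under an assumed t distribution with 6 degrees of freedom. Diamonds give the ratio after the trend on GC content and length was subtracted. The intervals of Adgre1, Mrc1 and Aif1 lie above 0 without adjustment for multiple testing, and the diamond lies below the circle for Mrc1 and above it for C1qa and for Cd68, whose sign it turns.

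If the authors' p-values are taken as those of a t distribution with 6 degrees of freedom on the log2 scale, they imply approximate 95% intervals for each gene, before adjustment for multiple testing. The interval was narrowest for Mrc1, 0.24 to 0.68, and widest for Lyz2, -0.43 to 0.60. For Csf1r it ran from -0.18 to 0.40, for C1qa from -0.07 to 0.50 and for Cd68 from -0.31 to 0.16. The missed threshold therefore does not show equal levels in the 2 groups.

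The ratios of all genes trended with transcript GC content and length, and the macrophage genes differed in both. Mrc1 has a GC content of 41.3% and 6371 exonic bases, while C1qa has 59.5% and 1040, beside medians of 50.3% and 3894 over all genes. With a smooth trend subtracted, the log2 ratio of Mrc1 was 0.25 in place of 0.46, and that of C1qa 0.43 in place of 0.21. C1qb was then at 0.33, C1qc at 0.24, Tyrobp at 0.35, Aif1 at 0.58 and Adgre1 at 0.44. All 10 ratios, Cd68 at 0.05 included, were then above 0, with a median of 0.29, and the lowest adjusted p was 0.249, so that none passed 0.05, where 0.125% of all genes did. The members at an unadjusted p under 0.05 were then Aif1 (0.0122), C1qa (0.0079) and Tyrobp (0.0476), so which members had the lowest p-values depended on this step. The share of all genes past that limit after the subtraction was not counted, so these members cannot be set against it. What part GC content and length have in the ratios was not tested.

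Other genes of the macrophage programme were read from 10 further lists, which held 156 measured genes besides the 10 members. None of the 156 passed an adjusted p of 0.05 in the authors' gene-specific analysis, again against 0.788% of all genes. At an unadjusted p under 0.05, 23 were higher and 6 lower in mutants, where 9.89% of all genes were past that limit on the higher and 9.4% on the lower side. The median log2 ratio of the 156 was 0.13. Adjusted over the 14168 genes with at least 1 mean of 1 or more, 1.19% of genes passed, among them Ptprc but no member.

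Of 30 leukocyte and myeloid signalling genes, 24 had a higher mean in mutants (median log2 ratio 0.23), where 50.6% of all genes did. At an unadjusted p under 0.05 there were 5, all higher, a side on which 9.89% of all genes were past that limit. Ptprc, which encodes the pan-leukocyte phosphatase CD45, had a mean of 8.65 in mutants and 5.50 in controls (adjusted p = 0.0608 in the authors' deposited table). It was the gene of these 10 lists closest to the threshold, with a log2 ratio of 0.65 that became 0.33 when the GC and length trend was subtracted. Dock2, a Rac activator of migrating leukocytes, had 9.46 in mutants and 6.14 in controls (adjusted p = 0.0826, as the authors' deposited table gives it). The tetraspanin gene Cd53 had 6.26 in mutants and 4.39 in controls (adjusted p = 0.118 in the authors' deposited table). Sirpa, the CD47 receptor gene, lay on the other side, with 145.2 in mutants and 157.4 in controls. Its log2 ratio became 0.02 with both groups scaled to the same sum, where the median of all genes was 0.14.

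Of 26 surface and scavenger genes of resident macrophages, 20 had a higher mean in mutants (median log2 ratio 0.18), again beside 50.6% of all genes. An unadjusted p under 0.05 was reached by 6, all higher, beside 9.89% of all genes on that side. Lyve1, the hyaluronan receptor gene of perivascular macrophages and of lymphatic endothelium, had means of 14.6 in mutants and 9.89 in controls (adjusted p = 0.0882 in the authors' deposited table). Ms4a7, a membrane protein gene of macrophages, had 12.1 in mutants and 9.43 in controls, and the chemokine gene Pf4, which platelets also express, had 17.4 and 13.5. Gas6, which encodes a bridging ligand for apoptotic cells, had 116.5 in mutants and 127.3 in controls. Endothelial markers were read beside these, since some endothelia express Mrc1 and Lyve1: of 7, 5 had a higher mean, with summed levels of 305.3 in mutants and 283.8 in controls. The 3 of lowest p-value were Kdr (52.6 in mutants and 41.6 in controls), Tek (15.9 and 12.7) and Cdh5 (88.1 and 79.2). None passed an adjusted p of 0.05, and the lowest was 0.213 for Kdr in the authors' deposited table. The 2 with a lower mean, named after their values were seen, were Pecam1 (51.3 in mutants and 52.7 in controls) and Vwf (50.4 and 53.0). The part of endothelium in the Mrc1 and Lyve1 values was not tested.

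The upstream regulators did not follow 1 direction. Of 17 genes for CSF1 receptor ligands, related receptors and myeloid transcription factors, 7 had a higher and 10 a lower mean in mutants (median log2 ratio -0.03). With both groups scaled to the same sum their median was 0.11, beside 0.14 for all genes. Past an unadjusted p of 0.05 were 1 higher and 2 lower, beside 9.89% and 9.4% of all genes on those sides. Klf4, a zinc finger factor gene that other cells also express, had 66.6 in mutants and 87.4 in controls. Ikzf1, a haematopoietic zinc finger factor gene, had the higher mean in mutants, with 5.01 there and 3.45 in controls. Their unadjusted p-values were 0.0389 for Klf4 and 0.0325 for Ikzf1 in the authors' deposited table, and Maf, a basic leucine zipper factor gene, had 429.8 in mutants and 437.9 in controls. The ligand gene Csf1 had 55.4 in mutants and 44.7 in controls (adjusted p = 0.337 in the authors' deposited table), while the other ligand gene Il34 had 0.683 and 1.12. Spi1, which encodes PU.1, had 12.9 in mutants and 11.5 in controls (adjusted p = 0.624 in the authors' deposited table). Csf1, Il34 and Spi1 were named after their values were seen.

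Of 16 complement genes other than the C1q chains, 14 had a higher mean in mutants, beside 50.6% of all genes. Their median log2 ratio was 0.31, or 0.22 with the GC and length trend subtracted. Of the 16, 4 had an unadjusted p under 0.05, all higher, beside 9.89% of all genes on that side. Calr, which encodes the C1q-binding chaperone calreticulin, had 778.4 in mutants and 571.3 in controls (adjusted p = 0.0892, as the authors' deposited table gives it). Cd93, which endothelium also expresses, had 75.4 in mutants and 59.9 in controls. Both are made by cell types besides macrophages.

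Genes for antibody receptors and for the clearance of dying cells lay on both sides of equality. Of 5 Fc receptor genes, 3 had a higher mean in mutants (median log2 ratio 0.09). Fcgr1, which encodes the high-affinity receptor, had 7.77 in mutants and 5.76 in controls, Fcgr4 had 1.18 and 0.763, and the inhibitory Fcgr2b had 15.01 and 16.2. The neonatal receptor gene Fcgrt, which many cells express, had 128.6 in mutants and 133.1 in controls. With both groups scaled to the same sum, the log2 ratios of Fcgr2b and Fcgrt were 0.03 and 0.09, beside a median of 0.14 for all genes. Of 14 genes for the clearance of dying cells, 9 had a higher mean (median log2 ratio 0.05), beside 50.6% of all genes. At an unadjusted p under 0.05 there were 2 higher and 2 lower in mutants. Over all genes 9.89% were past that limit on the higher and 9.4% on the lower side. Among the 14, the bridging protein gene Mfge8 had 212.6 in mutants and 253.8 in controls (adjusted p = 0.109, as the authors' deposited table gives it). The phosphatidylserine receptor gene Adgrb1 had 21.99 in mutants and 14.8 in controls, the bridging protein gene Pros1 had 82.6 and 71.3, and Lrp1 had 633.1 and 541.4.

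Genes of digestion and antigen presentation lay on both sides of equality. Of 18 lysosome genes, 10 had a higher and 8 a lower mean in mutants (median log2 ratio 0.05). Past an unadjusted p of 0.05 were 4 higher and 1 lower, beside 9.89% and 9.4% of all genes on those sides. Lamp2, which encodes a lysosomal membrane protein, had 224.1 in mutants and 178.4 in controls, while the cholesterol carrier gene Npc2 had 245.3 and 288.7. The acid lipase gene Lipa had 25.5 in mutants and 20.6 in controls, and the saposin precursor gene Psap had 771.8 and 799.1. Of 7 genes for antigen presentation by MHC class II, 5 had a lower mean (median log2 ratio -0.13). With both groups scaled to the same sum their median was 0.0038, beside 0.14 for all genes. The invariant chain gene Cd74 was nearly level, at 21.8 in mutants and 21.5 in controls, with the transactivator gene Ciita at 0.595 and 0.410, H2-DMb1 at 13.3 and 14.6 and H2-Eb1 at 5.23 and 6.26.

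Of 15 measured chemokine, cytokine and receptor genes, 11 had a higher mean in mutants (median log2 ratio 0.17). The gene of lowest p-value, Tgfb1, lay on the other side, with 303.2 in mutants and 375.0 in controls (adjusted p = 0.0903, as the authors' deposited table gives it). The growth factor gene Igf1, which mesenchyme also expresses, had 159.3 in mutants and 112.2 in controls, and the monocyte chemokine receptor gene Ccr2 had 2.96 and 2.04. Of 9 genes of classical and alternative activation, 6 had a higher mean (median log2 ratio 0.08), and in 5 both means were under 1. The prostaglandin synthase gene Ptgs2 had 0.713 in mutants and 0.483 in controls and the arginase gene Arg1 0.111 and 0.197. Slc7a2 had 45.2 in mutants and 38.2 in controls, and Mrc2, an endocytic collagen receptor gene of mesenchymal cells, had 636.8 and 623.0.

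**Figure D3:**
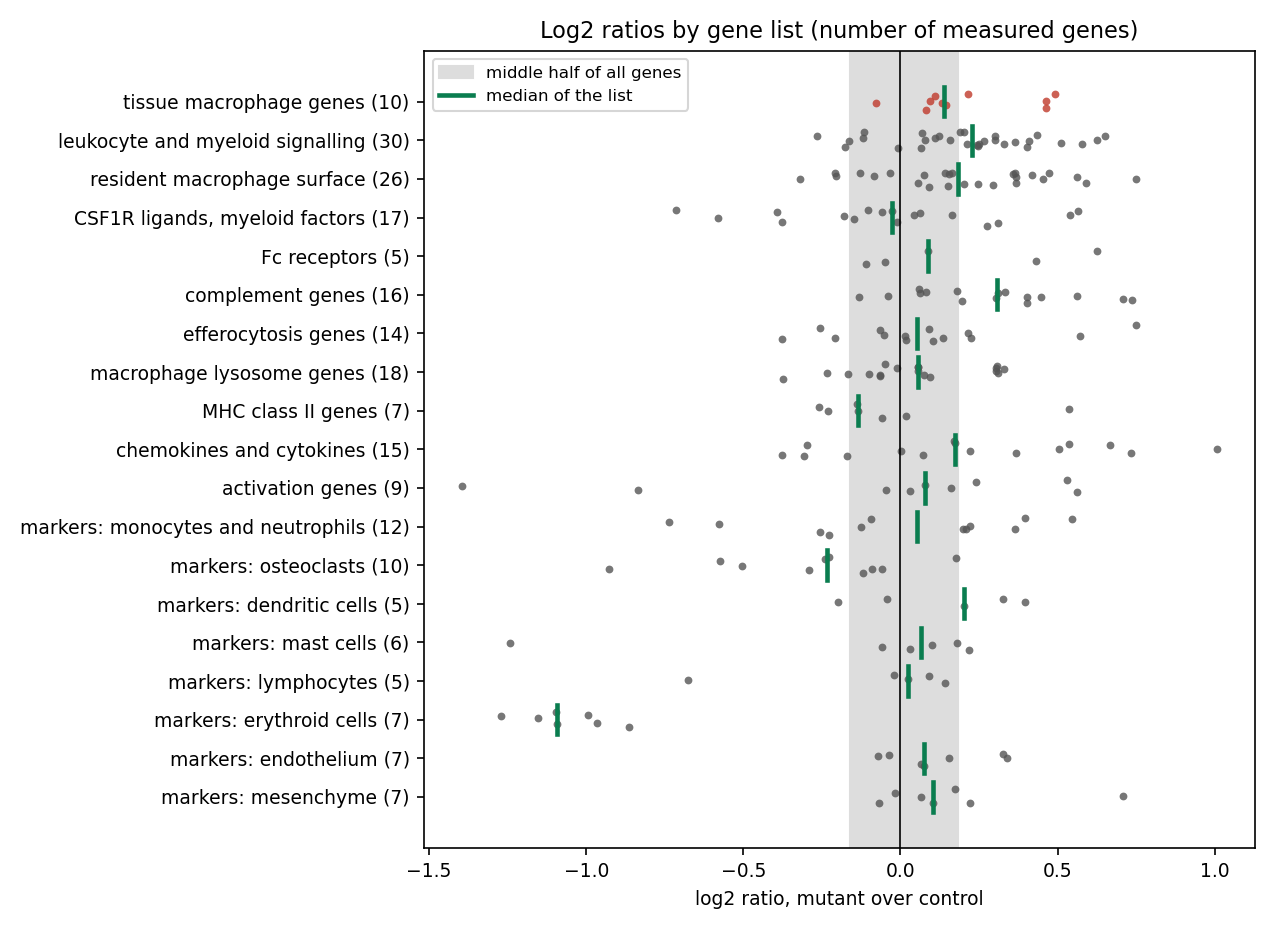
Log2 ratio of mutant over control for every measured gene of each list (points), with the list median (bar) and the range of the middle 50% of all genes (grey band). The 10 tissue macrophage genes (top row) have a median of 0.14 inside the band, which runs from -0.16 to 0.18, while the 7 erythroid markers lie between -1.27 and -0.86.

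Markers of other blood cells were read beside the macrophage genes, whose own summed level was 578.8 in mutants and 506.1 in controls. Of 10 measured osteoclast markers, 9 had a lower mean in mutants (median log2 ratio -0.23), where 50.6% of all genes had a higher mean. Their summed levels were 189.4 in mutants and 219.0 in controls. Tnfrsf11a, named after its values were seen, went the other way, with 3.55 in mutants and 3.14 in controls. The receptor gene Oscar had 0.245 in mutants and 0.465 in controls (adjusted p = 0.217, as the authors' deposited table gives it). Both means were under 1 for 3 of the 10, Oscar among them. The gelatinase gene Mmp9 had 26.0 in mutants and 38.7 in controls, the proton pump gene Atp6v0d2 had 1.01 and 1.44, and the protease gene Ctsk had 95.9 and 104.0. Osteoclast and macrophage genes thus had medians of opposite sign, but no osteoclast gene passed, where 0.788% of all genes did. The difference between the lists was not tested.

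Of 12 measured monocyte and neutrophil markers, 6 had a higher mean in mutants, with sums of 35.2 in mutants and 36.2 in controls. Plac8, which weighs most in these sums, had 14.3 in mutants and 17.0 in controls. Ly6c2, of inflammatory monocytes, had 0.936 in mutants and 0.641 in controls, and Lcn2 had 1.39 and 1.05. The 5 measured dendritic cell markers summed to 3.06 in mutants and 3.03 in controls, most of it from Zbtb46. In that list Cd209a had 0.288 in mutants and 0.219 in controls, Cd207 had 0.131 and 0.105, Flt3 had 0.246 and 0.282 and Zbtb46 had 2.15 and 2.22.

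The 5 measured lymphocyte markers summed to 9.07 in mutants and 8.58 in controls. The co-receptor gene Cd4 had 6.16 in mutants and 5.58 in controls, and the B cell receptor chains Cd79a and Cd79b had 0.335 and 1.91 in mutants against 0.535 and 1.80 in controls. Of the 6 mast cell markers, 4 had a higher and 2 a lower mean in mutants, where 50.6% of all genes had a higher mean. The protease gene Cma1 had 3.33 in mutants and 2.94 in controls, and Mcpt4 had 3.13 and 2.93. Kit, which other cells also express, had 94.2 in mutants and 81.0 in controls. The 2 with a lower mean, named after their values were seen, were Hdc (0.400 in mutants and 0.946 in controls) and Cpa3 (2.16 and 2.25). No dendritic cell, lymphocyte, mast cell, monocyte or neutrophil marker measured had an unadjusted p under 0.05. Over all genes 9.89% were past that limit on the higher and 9.4% on the lower side. Both means were under 1 for 5 of the 12 monocyte and neutrophil markers and 4 of the 5 of dendritic cells. The same held for 3 of the 5 lymphocyte and 1 of the 6 mast cell markers. Of 13 listed lymphocyte markers, 8 were not measured. The missed limit therefore does not show equal levels of these markers.

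Erythroid markers differed in the other direction from the macrophage genes. All 7 had a lower mean in mutants, where 50.6% of all genes had a higher mean. Their summed levels were 425.8 in mutants and 946.5 in controls. All 7 also had an unadjusted p under 0.05, beside 9.4% of all genes on the lower side. With the GC and length trend subtracted, the unadjusted p was above that limit for Hba-a2 (0.173) and Slc4a1 (0.0590). Of the 7, 1 passed an adjusted p of 0.05, the alpha-globin gene Hba-a1, where 0.788% of all genes did. Hba-a1 had means of 92.5 in mutants and 223.3 in controls (adjusted p = 0.0484 in the authors' deposited table). Its reads may be shared with Hba-a2, and it did not pass with the GC and length trend subtracted. The beta-globin gene Hbb-bs had 189.9 in mutants and 422.7 in controls, and Alas2, of haem synthesis, had 5.93 and 11.6. The 7 mesenchymal genes had summed levels of 58008 in mutants and 58358 in controls, most of it from Col1a1. A higher mean in mutants was found for 5 of the 7 (median log2 ratio 0.10), beside 50.6% of all genes. Among the 7, Col1a1 had 45190 in mutants and 45713 in controls and Vim had 1977 and 1752. Pdgfra had 322.5 in mutants and 276.9 in controls and the follicle gene Postn had 326.7 and 200.2. Whether the amount of blood or of other tissue in the samples has a part in the macrophage values was not tested.

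**Figure D4:**
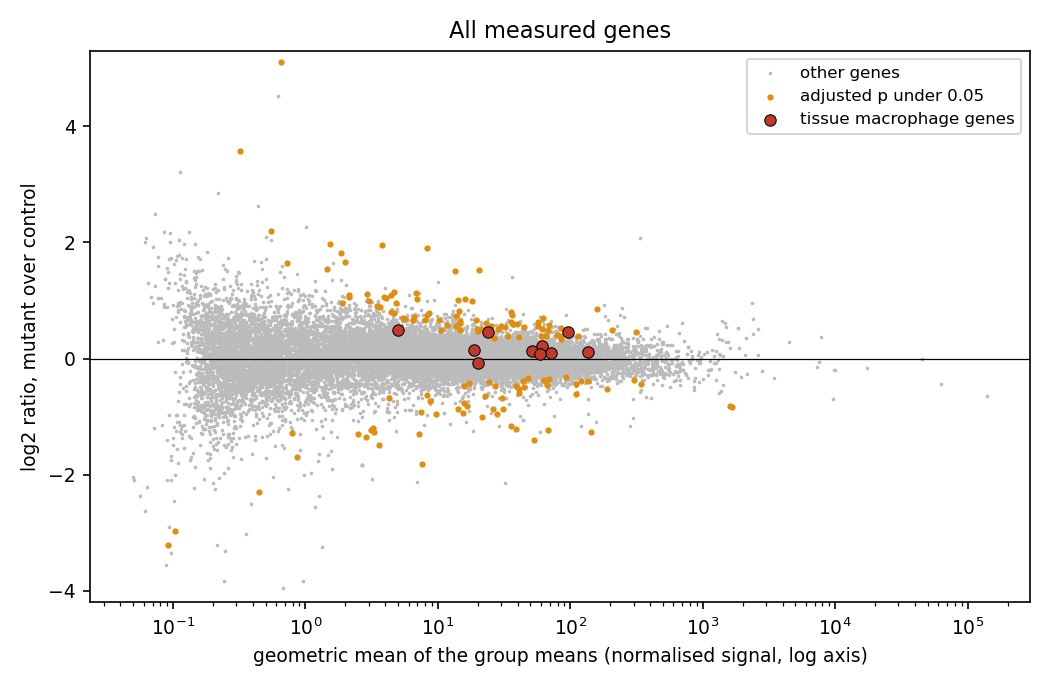
Log2 ratio of mutant over control against the geometric mean of both group means (normalised signal, log axis) for all 17631 genes. Orange points passed an adjusted p of 0.05. Large red points are the 10 tissue macrophage genes, which lie between -0.08 (Cd68) and 0.49 (Aif1) among genes that did not pass. Cd68 is above 0 with the trend subtracted and under the same-sum scaling, which shifts the log2 ratios of all genes up by 0.14.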

How the data were processed

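Per the submitters' processing notes, STAR 2.6.1d, Partek and the build mm10 were used, with no role given for any; the annotation, the counting, the normalisation and the model are not stated there. Per the file headers, the authors' deposited table sets KO against WT, called mutant and control here, and its title calls it a Partek gene-specific analysis. Its group means are the authors' normalised signal on a linear scale. The deposited ratio is the mutant over the control mean, and the deposited signed fold change is a score that restates it. The deposited p-value is the authors' own, and the deposited FDR, which is the adjusted p of the text, is what a Benjamini-Hochberg adjustment over all 17631 genes gives (relative tolerance 1e-06). The deposited total equals 4 times the sum of both means, so it is a normalised signal too. Depth per library is unknown from this table.

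A test on counts was planned first and could not be run on group means, so the authors' adjusted p under 0.05 was used. Nothing states that libraries came from separate animals, so the p-values speak for the spread among libraries, which can be technical. Log2 ratios, list counts and medians were computed with Python 3.11.15 (numpy 2.4.6, pandas 2.3.3, scipy 1.17.1). The members and lists were chosen with earlier results of these data known, and genes may stand in more than 1 list. Named genes are the 10 members and, per other list, those past the threshold, the 3 of lowest p-value and the 1 of highest mean, with exceptions marked in the text; some genes that this rule takes are not reported here. Coordinates, GC content and exonic length came from GENCODE M21 on GRCm38, matched by symbol for 17562 genes (99.6%). The GC and length trend was fitted with smooth terms on log2 length and GC content (mgcv 1.9.3, R 4.3.3), separately for the log2 ratio and for the signed z from the authors' p, and took 13.3% of the variance of the log2 ratio and 22.1% of that of z. The trend subtraction and the approximate intervals were tested on simulated data, the intervals only on normal values compared by a t-test. That does not show whether the intervals hold for the authors' p-values. Apart from the rank by mean used to choose named genes and the summed levels, levels of different genes were not compared. The reason is that the sources do not say whether the signal is per length. Genes of high mean weigh most in the summed levels.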

Additional observations from a re-analysis of the deposited data

How the results depend on the processing

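With p-values adjusted over the 14168 genes that reach a mean of 1 in either group, or with the trend on GC content and length taken off, 0 macrophage genes passed; at an adjusted p under 0.1, 1 (Mrc1) did. The median log2 ratio of 0.14 stayed within 0.1 when centred on all genes, with 1 added to both means, or scaled without the 10 genes of highest mean. It was 0.28 when both groups were scaled to the same sum, which shifts every log2 ratio by 0.14, and 0.29 with the trend subtracted. Cd68 turned to 0.052 under that subtraction, and the cause was not tested. Over the 215 measured genes of the other 18 lists, 1 (Hba-a1) was called, beside 0.788% of all genes. With the filter on low means there were 3, beside 1.19% of all genes kept. At an adjusted p under 0.1 there were 10, of which 5 were higher and 5 lower in mutants, beside 3.64% of all genes. With the trend subtracted, which treats the whole trend as unwanted, there were 0, beside 0.125% of all genes. No paired analysis was possible because the table holds group means without values per library. Leaving out each replicate was not run for the same reason, so no result here has a check on single libraries.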
